A study of Homo sapiens with 18 samples.

Results

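The antigen presentation genes described here are 32 named members, taken as the rows of the deposited gene table whose symbol is on that list, out of 46218 gene IDs. They comprise 6 class I chains, 6 genes of peptide loading and trimming, 5 transcriptional regulators, 10 class II chains and helpers, 2 genes of endosomal processing and 3 ligands of lymphocyte receptors. Transcripts were sequenced from 3 established lines of human glioblastoma, named LN229, T98G and U118-MG. Each line carried either the control guide, sgCon, or the guide sgDDA1, which directs CRISPR to the gene DDA1, with 3 libraries per group and 18 in all. CRL4 ubiquitin ligases contain DDA1, a small partner of DDB1, and the study, by its title, asks how mTORC1 acts through phosphorylated DDA1 on the repair of DNA and the course of glioblastoma. All groups shared DMEM with 10% fetal bovine serum, and the labels used here give neither an interferon treatment nor whether a line is a clone or a pool. Whether replicate libraries stem from separate cultures is not stated, and each p-value therefore reflects library-to-library spread that may be technical in origin.

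Library totals ranged from 44.9 M to 55.1 M counts, with 94.1 M in LN229 sgCon 1. The libraries labelled U118-MG sgCon stood apart from their label. Across 24418 genes their correlation with LN229 sgDDA1 was 0.960, 0.985 and 0.988, against 0.847, 0.869 and 0.860 with U118-MG sgDDA1. U118-MG sgCon 1 also differed from the other libraries of its group, with a chi-square per gene of 152 and 153, where LN229 and T98G replicates differed by 3.80 to 6.31. U118-MG sgDDA1 1 stood apart from its group to a lesser degree, at 17.8 and 19.4 against 3.53 between the other libraries, and was kept in the model. The group labelled U118-MG sgCon, for its resemblance to LN229 and its spread, was left out of the model of LN229, T98G and U118-MG sgDDA1. The guide comparison in U118-MG is given as labelled. The transcript of the targeted gene, DDA1, fell by 0.52 (SE 0.05, adjusted p = 1.18e-08) on the log2 scale in LN229 and by 0.19 (SE 0.05, adjusted p = 0.00482) in T98G, and was not called in U118-MG as labelled (0.09, SE 0.10, adjusted p = 0.45). A guide can act on the protein without lowering the transcript, which these counts do not measure.

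Class I molecules, a heavy chain with B2M, carry peptides made by the proteasome, which TAP moves into the endoplasmic reticulum and ERAP enzymes trim, and show them to CD8 T cells. Class II molecules are alpha and beta pairs (DR, DP and DQ) that are held by the invariant chain CD74 until endosomal proteases such as cathepsin S remove it, HLA-DM then loads peptide, and CD4 T cells read the result. NLRC5 and CIITA are the coactivators of class I and class II genes, and both work through the RFX complex on a promoter element called the X box, which is usually followed by a Y box. Most cells outside the immune system show class I at all times and class II mainly after interferon gamma.

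Promoter sequences are shown for some of the members whose changes are described most closely. They are given because several class II genes share an element readable in the sequence, and some members with like elements moved differently. RefSeq windows on GRCh38.p14 reach 250 bases upstream of an annotated start, and 27 of the 32 members matched by symbol (all but HLA-DRA, HLA-E, CIITA, NLRC5 and CTSS). The motifs were chosen after the sequences had been seen. Capitals mark an X box core written AGNNACNG, a Y box ATTGG, an interferon response core GAANNGAAA (read here on the opposite strand as TTTCACTTC) or, at the first capitals of HLA-B, a kappaB site, each on the strand of the gene. The class II windows below are given 5′ to 3′ on the strand of the gene.
HLA-DRB1, chr6:32589879-32589978, minus strand: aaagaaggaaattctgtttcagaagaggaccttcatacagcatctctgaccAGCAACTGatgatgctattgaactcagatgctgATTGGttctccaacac
HLA-DQB1, chr6:32666688-32666787, minus strand: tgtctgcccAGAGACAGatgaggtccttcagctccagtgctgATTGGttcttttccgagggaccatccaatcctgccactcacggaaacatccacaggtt
HLA-DQA1, chr6:32637276-32637375, plus strand: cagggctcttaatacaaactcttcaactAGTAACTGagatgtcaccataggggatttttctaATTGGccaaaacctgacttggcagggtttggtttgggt
HLA-DOA, chr6:33009622-33009721, minus strand: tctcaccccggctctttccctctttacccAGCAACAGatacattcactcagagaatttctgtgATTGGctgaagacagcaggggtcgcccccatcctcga
HLA-DMA, chr6:32953128-32953227, minus strand: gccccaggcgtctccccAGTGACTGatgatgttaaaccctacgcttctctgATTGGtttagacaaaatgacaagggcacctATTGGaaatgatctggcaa
HLA-DMB, chr6:32941059-32941158, minus strand: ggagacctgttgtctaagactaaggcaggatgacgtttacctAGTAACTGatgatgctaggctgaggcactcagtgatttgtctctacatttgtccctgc
CD74, chr5:150412941-150413040, minus strand: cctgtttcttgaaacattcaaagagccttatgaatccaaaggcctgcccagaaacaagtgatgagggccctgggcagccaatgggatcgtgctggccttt
In HLA-DRB1 and HLA-DQB1 the X core began 33 bases before the Y box, and in HLA-DQA1, HLA-DOA and HLA-DMA 34 bases before it. HLA-DMB held the X core without ATTGG in the printed stretch, and CD74 held neither on its strand in that stretch. In stretches not printed, HLA-DPA1 held the X core without ATTGG, and HLA-DPB1 held ATTGG without the X core. Both DP genes rose in LN229, by 2.44 and 2.14 on the log2 scale. Only exact matches to the letters written here were searched. A stretch without such a match may still hold a variant of the element, which was not tested. An X core followed on the gene's strand by ATTGG within 50 bases stood in 0.926% of all 35116 promoter windows, and the members that held it were HLA-DMA, HLA-DOA, HLA-DQA1, HLA-DQB1 and HLA-DRB1. On either strand the share was 1.81%, and HLA-DMB joined them. The X core alone was in 40.9% of windows and ATTGG alone in 32.01%. The windows of HLA-DRB1, HLA-DOA and CD74 lie outside the annotated gene in GENCODE 29, and those of HLA-DQA1, HLA-DQB1, HLA-DMA and HLA-DMB lie wholly or in part inside it, all but the HLA-DMA window touching an exon of some transcript. The HLA-DMB window overlaps its own gene by 12 bases and also lies inside another gene.

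For class I the windows of HLA-B and HLA-C are shown, since these neighbouring genes both rose in LN229, by 0.65 and 0.21 on the log2 scale.
HLA-B, chr6:31357220-31357369, minus strand: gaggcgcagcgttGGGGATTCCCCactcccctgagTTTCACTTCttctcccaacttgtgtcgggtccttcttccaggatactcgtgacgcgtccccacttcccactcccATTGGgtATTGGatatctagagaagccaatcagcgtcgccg
HLA-C, chr6:31272133-31272282, minus strand: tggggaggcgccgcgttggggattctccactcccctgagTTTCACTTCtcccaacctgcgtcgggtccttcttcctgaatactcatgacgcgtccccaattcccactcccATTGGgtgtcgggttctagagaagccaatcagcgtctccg
Both held the interferon response core, which was found on either strand in 6.56% of all windows and in 9 of the 38 member windows. These belonged to 9 of the 27 member genes. The kappaB site was found in 11 windows of 35116 on either strand, and HLA-B was the member among them. A match describes letters in a window and shows neither binding nor a cause.

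The DDA1 guide went with different changes of these genes in LN229 and T98G. In LN229, 22 of the 31 members tested passed an adjusted p of 0.05 in edgeR's quasi-likelihood test, 20 higher and 2 lower, where 45.6% of all 24020 genes tested were called, 26.2% higher and 19.4% lower. In T98G 18 members were called, 6 higher and 12 lower, where 39.0% of all genes were called, 19.4% higher and 19.6% lower. The median log2 fold change of the members was 0.31 in LN229, beside 0.06 for all genes, and fell by 0.18 in T98G, beside 0.00. HLA-G, a class I chain of the placenta, did not pass the filter on low counts, with 0 to 7 counts in each of the 18 libraries. The largest rises of LN229 were those of class II chains, whose levels stayed low, while class I chains and ligands also rose. The largest drops of T98G were those of CTSS, CD74 and HLA-DRA, which stood high in its control libraries.

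**Figure D1:**
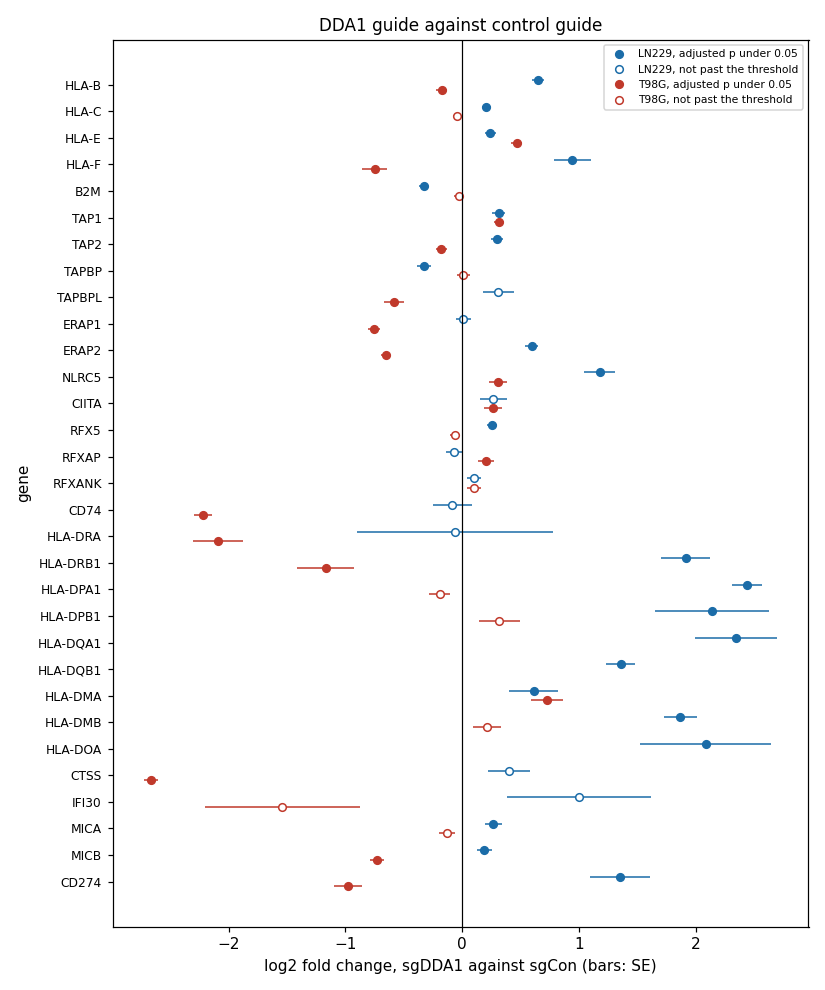
Log2 fold change of each member under the DDA1 guide against the control guide in LN229 (blue) and T98G (red), from a model with 3 libraries per group; bars are standard errors and filled points have an adjusted p under 0.05. Class II genes of LN229 lie at the right (HLA-DPA1 2.44), CTSS, CD74 and HLA-DRA of T98G at the left (-2.66, -2.22 and -2.09), and HLA-DOA, HLA-DQA1 and HLA-DQB1 of T98G are left out because both groups were at or under the floor of 3 counts.

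Of the 10 class II chains and helpers, 8 rose in LN229 and none fell, with a median log2 fold change of 1.89. Of all genes, 26.2% were called higher there and 19.4% lower. HLA-DPA1, the DP alpha chain, measured 1.08, 0.733 and 0.775 CPM (counts scaled to a common library size by TMM) in the LN229 control libraries and 5.11, 4.91 and 4.60 CPM under the DDA1 guide. The groups did not overlap, and the gene rose by 2.44 on the log2 scale (SE 0.13, adjusted p = 5.26e-14), or 5.42-fold. HLA-DRB1, the DR beta chain, measured 0.715, 1.02 and 0.997 CPM in the controls and 3.87, 3.12 and 3.11 CPM under the guide, a rise of 1.91 (SE 0.21, adjusted p = 2.87e-08). HLA-DQB1, the DQ beta chain and the most abundant class II transcript of LN229 per length, went from 7.56, 7.28 and 6.79 CPM to 19.3, 16.6 and 19.6 CPM, a rise of 1.36 (SE 0.12, adjusted p = 1.01e-09). All 3 libraries under the guide were above all 3 controls for both of these genes too.

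HLA-DQA1, the DQ alpha chain, rose by 2.34 (SE 0.35, adjusted p = 5.27e-06), from 0.384 ± 0.053 to 1.95 ± 0.31 CPM (SD, n = 3). HLA-DPB1, the DP beta chain, rose by 2.14 (SE 0.49, adjusted p = 0.000751) on counts of 4, 0 and 9 in the controls and 19, 17 and 13 under the guide, so its control level sat near the floor of 3 counts, and the rise was 3.35 without LN229 sgCon 3. HLA-DMB, the beta chain of the peptide loader HLA-DM, rose by 1.87 (SE 0.14, adjusted p = 2.6e-11), from 1.96 ± 0.26 to 7.22 ± 1.15 CPM (SD, n = 3). HLA-DOA, the alpha chain of the HLA-DM inhibitor HLA-DO, rose by 2.08 (SE 0.56, adjusted p = 0.00332) on 6 to 12 counts in the controls and 27 to 30 under the guide. HLA-DMA, the partner of HLA-DMB, rose least, by 0.61 (SE 0.21, adjusted p = 0.019), and its groups overlapped. Its call was lost without LN229 sgCon 1 (0.47, adjusted p = 0.138), sgCon 2 (0.49, adjusted p = 0.085), sgDDA1 1 (0.49, adjusted p = 0.103) or sgDDA1 2 (0.60, adjusted p = 0.0523), and also with the LN229 libraries fitted alone (0.56, adjusted p = 0.0704).

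HLA-DRA and CD74, which other class II chains pair with or are held by, were not called in LN229. HLA-DRA, the single DR alpha chain, had 2, 0 and 13 counts in the LN229 controls and 0, 4 and 8 counts under the guide (log2 fold change -0.06, SE 0.84, adjusted p = 0.975), and the groups overlapped at the floor. CD74 measured 1.18, 1.07 and 1.46 CPM in the controls and 0.828, 1.40 and 1.20 CPM under the guide (-0.09, SE 0.17, adjusted p = 0.714), again with overlap. Per transcript length, HLA-DRA in LN229 sgDDA1 stood at 0.0638 ± 0.067 FPKM and HLA-DRB1 at 3.13 ± 0.42 FPKM (fragments scaled by transcript length and library size, SD, n = 3). In T98G controls the order was the reverse, with HLA-DRA at 11.1 ± 1.0 FPKM and HLA-DRB1 at 0.987 ± 0.081 FPKM.

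In T98G 3 class II genes fell and 1 rose among 10, a share close to the 39.0% of all genes called there. The group's median log2 fold change was -0.42. That median takes in the fitted values of HLA-DQA1, HLA-DQB1 and HLA-DOA, which were near absent in T98G, and is therefore no measure of size. CD74 measured 119.8, 125.3 and 117.4 CPM in the T98G controls and 25.5, 27.0 and 25.3 CPM under the DDA1 guide. The control libraries were all higher, by 4.65-fold (log2 fold change -2.22, SE 0.08, adjusted p = 6e-18). HLA-DRA went from 13.7, 15.9 and 13.6 CPM to 3.22, 3.85 and 3.07 CPM, a drop of 4.26-fold (log2 fold change -2.09, SE 0.21, adjusted p = 8.8e-09). HLA-DRB1 went from 1.29, 1.15 and 1.36 CPM to 0.601, 0.432 and 0.647 CPM (-1.17, SE 0.25, adjusted p = 0.000363). The libraries of both DR genes did not overlap between guides.

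HLA-DMA rose in T98G, from 7.07, 7.34 and 6.57 CPM to 10.8, 11.8 and 12.0 CPM (0.72, SE 0.14, adjusted p = 0.000107), with every library under the guide above every control. The DP chains were not called, at -0.19 (SE 0.09, adjusted p = 0.098) for HLA-DPA1 and 0.32 (SE 0.17, adjusted p = 0.162) for HLA-DPB1, nor was HLA-DMB (0.21, SE 0.12, adjusted p = 0.164). With the T98G libraries fitted alone all 3 passed, at -0.19 (adjusted p = 0.0435), 0.32 (adjusted p = 0.00832) and 0.22 (adjusted p = 0.0254), and HLA-DPA1 also passed without T98G sgCon 2 (-0.27, adjusted p = 0.0296) and in DESeq2 (-0.22, adjusted p = 0.0291). The DQ chains and HLA-DOA were near absent, with 0 to 5 counts in each of the 6 T98G libraries, so no fold between guides is given for them.

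CTSS, the cathepsin S gene, had the largest change among the members called in LN229 or T98G. It measured 302.3, 314.2 and 312.8 CPM in the T98G controls and 52.0, 49.1 and 45.4 CPM under the DDA1 guide. Without overlap, it fell 6.34-fold (log2 fold change -2.66, SE 0.06, adjusted p = 1.52e-21). In LN229 the gene stood at 0.687 ± 0.062 CPM in the controls and 0.905 ± 0.169 CPM under the guide (SD, n = 3), with a difference of 0.40 (SE 0.18, adjusted p = 0.0769) that passed in DESeq2 (adjusted p = 0.0491) and without LN229 sgDDA1 2 (0.50, adjusted p = 0.046). IFI30, the thiol reductase of endosomes, had 2 to 23 counts in the libraries of these lines and was called in neither (1.00, SE 0.62, adjusted p = 0.201 in LN229, and -1.54, SE 0.66, adjusted p = 0.0682 in T98G). In T98G it passed without sgCon 3 (-2.00, adjusted p = 0.0146) or sgDDA1 1 (-2.62, adjusted p = 0.0151).

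**Figure D2:**
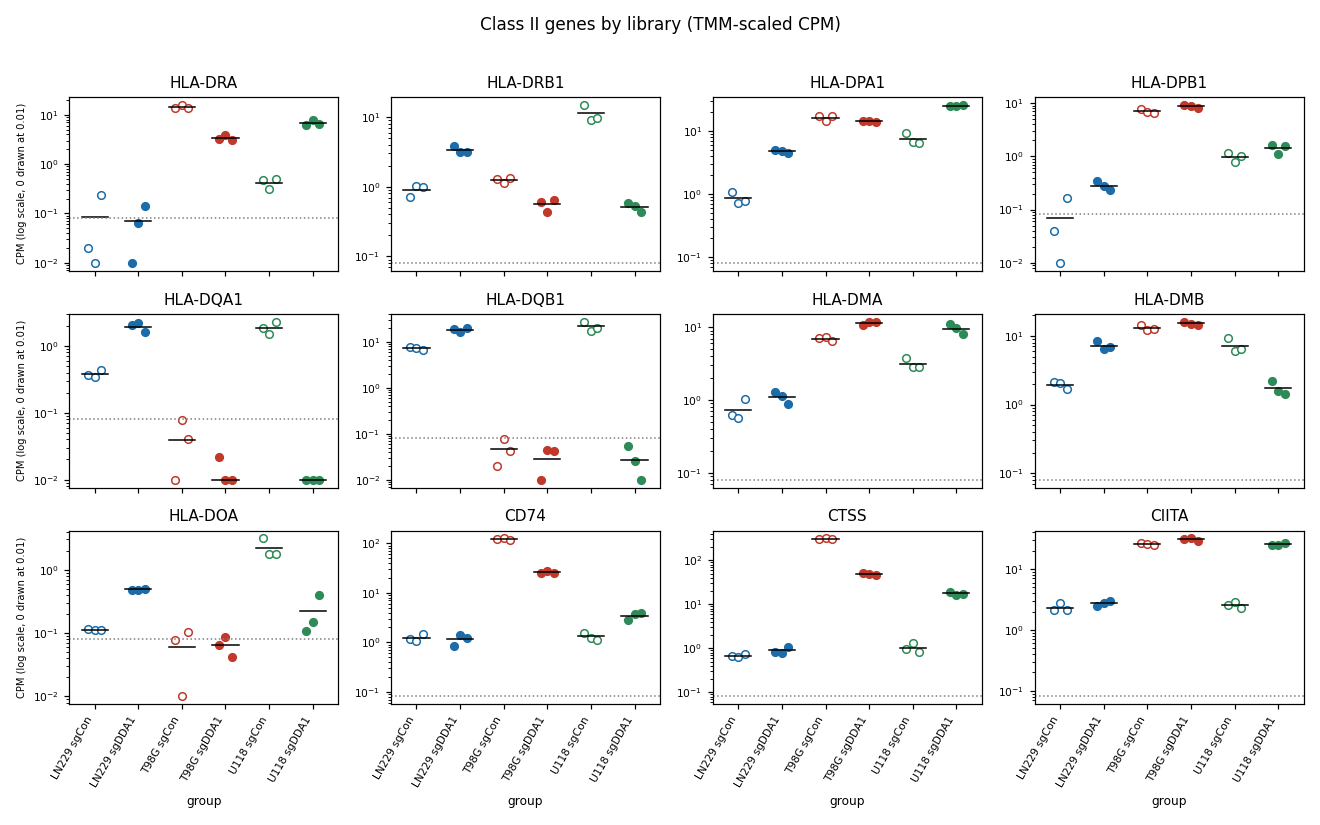
TMM-scaled CPM of 12 class II and endosomal genes in every library on a log axis, open points for sgCon and filled points for sgDDA1, with the group mean as a bar and the highest floor of 3 counts (0.0809 CPM) dotted; libraries at 0 are drawn at 0.01. HLA-DRA, CD74 and CTSS are high in T98G and drop under the guide, and the DQ genes are present in LN229 and in the group labelled U118-MG sgCon, and at or near 0 elsewhere.

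Of the markers of leukocytes, which carry most class II in a tissue, 6 of 12 passed the filter on low counts, and several defining ones were at or near 0. PTPRC, the pan-leukocyte CD45 gene, had 0 to 11 counts per library, CD3E of T cells 0 to 4, MS4A1 of B cells 0 to 1 and TYROBP of myeloid cells 0 to 2. The 12 markers summed to 4.13 to 4.67 CPM in LN229 sgCon, 4.91 to 6.57 in LN229 sgDDA1, 6.83 to 8.29 in T98G sgCon, 5.69 to 6.36 in T98G sgDDA1, 6.63 to 7.72 in the group labelled U118-MG sgCon and 4.19 to 5.47 in U118-MG sgDDA1. The sums thus moved in the direction of the class II genes in both lines, and their part in the result was not tested. Of the astroglial and glioma markers, GFAP reached at most 183 counts, in U118-MG sgCon 1, and S100B at most 14. VIM averaged 66.0 to 2384 CPM over the groups, with 82.7 CPM in LN229 sgCon and 885 CPM in T98G sgCon. SLC1A3 (99.7 and 11.1 CPM) and SOX2 (18.6 and 0.126 CPM) ran the other way between these groups. Of 9 such markers tested, 3 were called higher in T98G sgCon and 5 lower, where 35.9% of all genes were called higher and 38.9% lower. Whether fewer cells held a transcript or each cell held less cannot be told apart in bulk RNA.

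The median log2 fold change of the class I chains was 0.24 in LN229 and -0.05 in T98G. In LN229 4 of 5 tested class I chains rose and 1 fell, where 26.2% of all genes were called higher and 19.4% lower. In T98G 1 rose and 2 fell, where 19.4% of all genes were called higher and 19.6% lower. HLA-B, a classical heavy chain, measured 49.5, 45.8 and 46.1 CPM in the LN229 controls and 73.6, 76.2 and 72.5 CPM under the guide, a rise of 1.57-fold without overlap (log2 fold change 0.65, SE 0.05, adjusted p = 8.51e-11). In T98G the same gene went from 898.2, 821.1 and 807.2 CPM to 754.2, 715.5 and 764.5 CPM (-0.18, SE 0.05, adjusted p = 0.00431). The T98G groups did not overlap, yet the call was lost without T98G sgCon 1 (-0.12, adjusted p = 0.0699) and in a model with all 18 libraries (-0.18, adjusted p = 0.363).

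HLA-C, the neighbouring classical chain, rose in LN229 by 0.21 (SE 0.04, adjusted p = 7.31e-05), from 145.9 ± 6.0 to 168.3 ± 0.3 CPM (SD, n = 3), and was not called in T98G (-0.05, SE 0.04, adjusted p = 0.375, and 0.043 in DESeq2). HLA-E, the ligand of the NKG2A receptor on natural killer cells, rose in both lines. It went from 57.8, 54.7 and 53.9 CPM to 67.7, 63.6 and 65.5 CPM in LN229 (0.24, SE 0.05, adjusted p = 0.000291). In T98G it went from 390.4, 383.7 and 357.9 CPM to 527.5, 514.0 and 522.6 CPM (0.47, SE 0.05, adjusted p = 1.05e-08). Its groups did not overlap in either line. With all 18 libraries in the model the LN229 calls of HLA-C (0.21, adjusted p = 0.2) and HLA-E (0.24, adjusted p = 0.122) were lost.

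HLA-F, a nonclassical chain with low surface levels, took opposite directions. It rose in LN229 from 1.45, 0.997 and 0.941 CPM to 2.29, 2.51 and 1.98 CPM (0.94, SE 0.16, adjusted p = 1.71e-05). It fell in T98G from 28.98, 29.7 and 24.9 CPM to 15.8, 16.3 and 17.5 CPM (-0.75, SE 0.11, adjusted p = 1.93e-06). Neither line showed overlap between guides. B2M, the light chain of every class I molecule, fell in LN229 from 338.5, 328.8 and 324.4 CPM to 253.1, 275.0 and 259.8 CPM (-0.33, SE 0.04, adjusted p = 6.17e-08), while all called heavy chains rose there. In T98G B2M stood at 3799 ± 79 and 3720 ± 74 CPM (SD, n = 3) and was not called (-0.03, SE 0.04, adjusted p = 0.584).

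Among peptide loading and trimming genes, 3 rose and 1 fell of 6 in LN229, and 1 rose and 4 fell in T98G. Of all genes, 45.6% were called in LN229 and 39.0% in T98G, and so short a list is read gene by gene here. TAP1, a chain of the peptide transporter, rose in both lines, by 0.31 (SE 0.05, adjusted p = 3.12e-05) in LN229 and by 0.32 (SE 0.04, adjusted p = 1.71e-06) in T98G. The difference of the responses was 0.01 with an SE of 0.07 (adjusted p = 0.989), and both rises lost their call with all 18 libraries in the model (adjusted p = 0.0746 and 0.0777). TAP2, the other transporter chain, rose in LN229 by 0.30 (SE 0.05, adjusted p = 1.68e-05) and fell in T98G by 0.18 (SE 0.05, adjusted p = 0.00314), the latter with an adjusted p of 0.103 with all 18 libraries. TAPBP, the tapasin gene, fell in LN229 by 0.33 (SE 0.06, adjusted p = 6.07e-05) and was not called in T98G (0.01, SE 0.06, adjusted p = 0.954).

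ERAP2, an aminopeptidase that trims peptides, measured 6.26, 6.79 and 6.09 CPM in the LN229 controls and 9.17, 9.69 and 9.91 CPM under the guide (0.59, SE 0.06, adjusted p = 3.32e-09). In T98G it fell from 388.9, 401.6 and 396.9 CPM to 256.3, 249.6 and 247.1 CPM (-0.66, SE 0.04, adjusted p = 5.36e-13). Neither line showed overlap, and the order of the guides was opposite. ERAP1, its partner, fell in T98G from 182.1, 179.4 and 179.9 CPM to 111.3, 108.2 and 101.4 CPM (-0.75, SE 0.05, adjusted p = 2.94e-12). In LN229 ERAP1 stood at 13.2 ± 0.6 and 13.3 ± 1.2 CPM (SD, n = 3), with a difference of 0.01 (SE 0.06, adjusted p = 0.926). TAPBPL, a tapasin-related peptide editor, fell in T98G by 0.58 (SE 0.08, adjusted p = 2.65e-06), and its LN229 difference of 0.31 (SE 0.13, adjusted p = 0.0606) passed in DESeq2 (adjusted p = 0.0376) and without LN229 sgCon 1 (0.49, adjusted p = 0.0114).

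**Figure D3:**
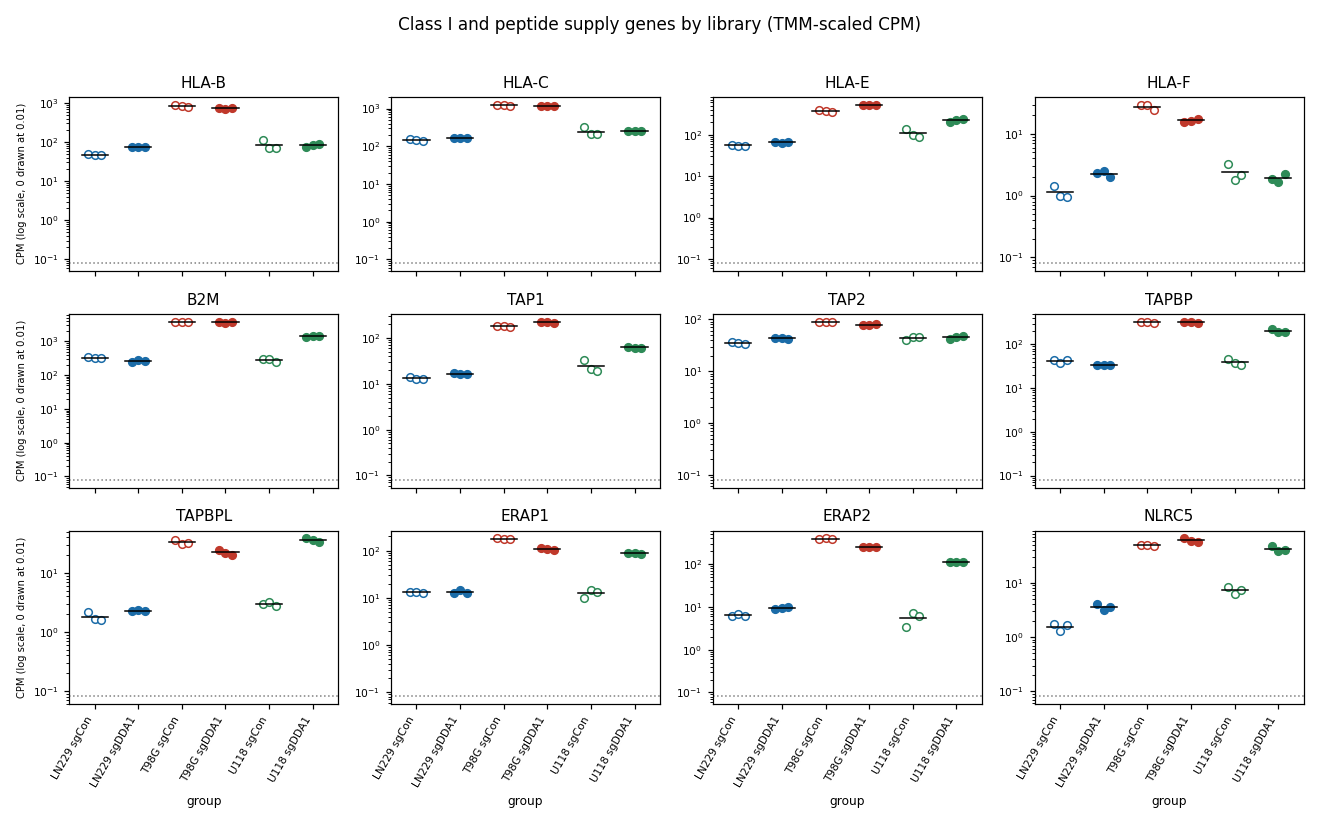
TMM-scaled CPM of 12 class I, peptide loading and regulator genes in every library on a log axis, open points for sgCon and filled points for sgDDA1, with the group mean as a bar and the highest floor of 3 counts dotted. The T98G libraries lie above the LN229 libraries in all 12 panels, and the steps between guides within a line are small beside that gap (HLA-B 47.1 and 74.1 CPM in LN229, 842.1 and 744.7 CPM in T98G).

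Of the regulators, NLRC5 was the member that moved most. It measured 1.74, 1.30 and 1.64 CPM in the LN229 controls and 4.12, 3.17 and 3.56 CPM under the guide, a rise of 2.26-fold without overlap (log2 fold change 1.18, SE 0.13, adjusted p = 4.67e-08). In T98G it went from 50.5, 49.3 and 48.0 CPM to 66.0, 58.5 and 57.8 CPM (0.30, SE 0.08, adjusted p = 0.00208), also without overlap. CIITA, the class II coactivator, measured 2.09, 2.80 and 2.09 CPM in the LN229 controls and 2.5, 2.74 and 3.02 CPM under the guide, and these groups overlapped (0.26, SE 0.12, adjusted p = 0.0644). That LN229 value passed in DESeq2 (adjusted p = 0.0404), without sgCon 2 (0.40, adjusted p = 0.00621) and without sgDDA1 1 (0.33, adjusted p = 0.04). In T98G, where HLA-DRA and CD74 fell, CIITA rose from 26.5, 26.0 and 24.7 CPM to 31.3, 31.8 and 29.3 CPM (0.26, SE 0.08, adjusted p = 0.00911). The T98G rises of NLRC5 and CIITA had adjusted p-values of 0.0658 and 0.0966 with all 18 libraries.

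The RFX subunits moved little. RFX5 rose in LN229 by 0.25 (SE 0.05, adjusted p = 3.81e-05) and was not called in T98G (-0.06, SE 0.05, adjusted p = 0.314). RFXANK was called in neither line, at 0.10 (SE 0.06, adjusted p = 0.202) in LN229 and 0.10 (SE 0.06, adjusted p = 0.204) in T98G, and passed in T98G without sgCon 2 (0.17, adjusted p = 0.0398). RFXAP was not called in LN229 (-0.07, SE 0.07, adjusted p = 0.423) and rose in T98G by 0.20 (SE 0.07, adjusted p = 0.0279). Without T98G sgCon 1, sgCon 2, sgDDA1 2 or sgDDA1 3 the RFXAP call was lost (0.19, 0.17, 0.18 and 0.18, adjusted p = 0.0884, 0.111, 0.105 and 0.104), as it was under another scaling (0.18, adjusted p = 0.0599), with no filter on low counts (0.18, adjusted p = 0.11) and with all 18 libraries (0.20, adjusted p = 0.129).

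CD274, which encodes the PD-1 ligand PD-L1, rose in LN229 and fell in T98G. It measured 0.235, 0.244 and 0.222 CPM in the LN229 controls and 0.666, 0.724 and 0.395 CPM under the guide (1.35, SE 0.26, adjusted p = 9.82e-05). In T98G it went from 15.9, 16.5 and 16.4 CPM to 8.27, 8.22 and 8.23 CPM (-0.98, SE 0.12, adjusted p = 1.72e-07). The guides did not overlap in either line, and the LN229 level stayed far below that of T98G. MICB, a stress ligand of NKG2D, fell in T98G from 52.1 ± 1.6 to 31.5 ± 1.5 CPM (SD, n = 3) (-0.73, SE 0.06, adjusted p = 2.05e-10). Its LN229 rise of 0.19 (SE 0.06, adjusted p = 0.0202) was lost without sgCon 1 (0.19, adjusted p = 0.0557), sgCon 2 (0.14, adjusted p = 0.131) or sgDDA1 1 (0.14, adjusted p = 0.115), with the LN229 libraries alone (0.15, adjusted p = 0.0919), with no filter (0.16, adjusted p = 0.0954) and with all 18 libraries (0.19, adjusted p = 0.22). MICA, the related ligand, rose in LN229 by 0.26 (SE 0.07, adjusted p = 0.00424, and 0.0742 with all 18 libraries) and was not called in T98G (-0.13, SE 0.07, adjusted p = 0.156).

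The difference between the responses of T98G and LN229 was tested as an interaction. It was called for 24 of 31 members, 4 higher and 20 lower in T98G, where 34.4% of all genes were called, 15.8% higher and 18.6% lower, and the members' median of -0.89 stood beside -0.03 for all genes. Of the 24, 7 had risen in LN229 and fallen in T98G, namely HLA-B, HLA-F, TAP2, ERAP2, HLA-DRB1, MICB and CD274. HLA-E and NLRC5 rose in both, HLA-E by more in T98G (difference 0.23, SE 0.07, adjusted p = 0.0124, and 0.385 with all 18 libraries) and NLRC5 by more in LN229 (difference -0.88, SE 0.15, adjusted p = 5.47e-05). A further 9 had been called in LN229 alone, 5 in T98G alone and 1, IFI30, in neither. For HLA-DRA the difference of -2.03 (SE 0.93, adjusted p = 0.0955) was not called, and it passed without LN229 sgCon 3 (-4.32, adjusted p = 0.00162), the library that held 13 of the 15 HLA-DRA counts of that group, without LN229 sgDDA1 1 (-2.57, adjusted p = 0.0275) and with no filter (-2.03, adjusted p = 0.0131).

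The lines differed by far more than the guides. Between control libraries, 28 of 31 members were called in T98G against LN229, 24 higher and 4 lower, where 74.8% of all genes were called, 35.9% higher and 38.9% lower, and the members' median log2 difference was 3.23 beside -0.07 for all genes. All 5 class I chains tested and all 6 peptide loading genes were higher in T98G. B2M was 11.2-fold higher (log2 difference 3.48, SE 0.04, adjusted p = 7.96e-30), HLA-B 17.3-fold (4.12, SE 0.06, adjusted p = 1.12e-28) and ERAP2 60.5-fold (5.92, SE 0.05, adjusted p = 1.01e-31). Among the genes higher in T98G, CTSS was 439-fold higher (8.78, SE 0.09, adjusted p = 1.01e-30), HLA-DRA 187-fold (7.55, SE 0.35, adjusted p = 7.27e-17) and CD74 95.8-fold (6.58, SE 0.11, adjusted p = 4.01e-27). The HLA-DRA difference rests on 2, 0 and 13 counts in the LN229 controls, and it was 9.85 on the log2 scale without LN229 sgCon 3 and 6.83 without LN229 sgCon 1. HLA-DRB1 (0.46, adjusted p = 0.0649) and IFI30 (1.28, adjusted p = 0.0619) were not called.

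The DQ genes ran the other way. HLA-DQB1 had 7 counts over the 3 T98G controls and 1527 over the 3 LN229 controls, a ratio of 158 with an exact 95% counting interval of 76.5 to 394, which like every floor here covers counting error only. HLA-DQA1 had 6 and 80 counts, a ratio of 9.66 with an interval of 4.25 to 27.1. The genes lie side by side on chromosome 6, HLA-DQA1 at chr6:32628179-32647062 on the plus strand and HLA-DQB1 at chr6:32659467-32668383 on the minus strand (GRCh38). RFXAP (-0.66, SE 0.07, adjusted p = 3.64e-09) and RFX5 (-0.16, SE 0.05, adjusted p = 0.00237) were the other members lower in T98G, and RFX5 lost its call with no filter (-0.09, adjusted p = 0.184) and with all 18 libraries (-0.12, adjusted p = 0.152).

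**Figure D4:**
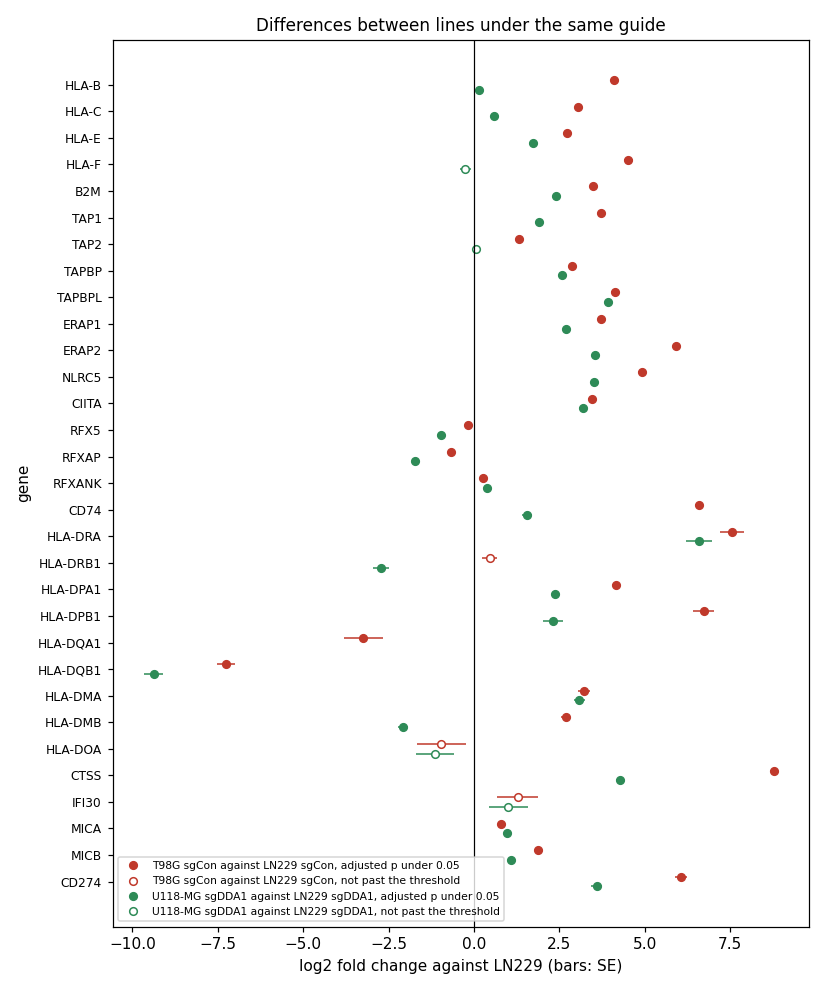
Log2 difference of each member in T98G sgCon against LN229 sgCon (red) and U118-MG sgDDA1 against LN229 sgDDA1 (green), with standard errors as bars and filled points for an adjusted p under 0.05. Most members lie to the right of 0, HLA-DQB1 lies far to the left in both, and HLA-DQA1 is left out for U118-MG because its 3 libraries held 0 counts.

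U118-MG sgDDA1 was compared with the other lines under the same guide. Against LN229 sgDDA1, 27 members were called, 21 higher and 6 lower, where 78.0% of all genes were called, 37.4% higher and 40.6% lower, with a median of 1.56 beside -0.10. Against T98G sgDDA1, 24 were called, 6 higher and 18 lower, where 67.2% of all genes were called, 33.9% higher and 33.3% lower, with a median of -0.51 beside 0.00. These comparisons share the 3 U118-MG libraries. HLA-DRA measured 6.17, 8.00 and 6.62 CPM in U118-MG sgDDA1, above LN229 sgDDA1 (6.58, SE 0.38, adjusted p = 9.38e-15, and 7.56 without LN229 sgDDA1 3) and above T98G sgDDA1 (1.06, SE 0.22, adjusted p = 0.000121, and 0.198 in DESeq2). HLA-DPA1 measured 25.1, 25.5 and 26.4 CPM, more than in any other group.

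Other class II genes of U118-MG sgDDA1 were low. HLA-DRB1 stood at 0.518 ± 0.083 CPM (SD, n = 3), 6.57-fold below LN229 sgDDA1 (-2.71, SE 0.24, adjusted p = 7.37e-11). HLA-DQA1 had 0 counts in all 3 libraries, at least 24.1-fold lower than LN229 sgDDA1 when set at the floor of 3 counts per library. HLA-DQB1 had 3 counts over the 3 libraries and 3191 in LN229 sgDDA1, a ratio of 713 with an exact 95% counting interval of 244 to 3460. HLA-DMB was 4.21-fold below LN229 sgDDA1 (-2.07, SE 0.15, adjusted p = 1.66e-12) while its partner HLA-DMA was 8.50-fold above it (3.09, SE 0.17, adjusted p = 2.06e-15). HLA-DOA, with 4, 6 and 16 counts, was called above T98G sgDDA1, which had 3, 4 and 2 counts (1.78, SE 0.71, adjusted p = 0.0294), and this was lost without T98G sgDDA1 1 (1.76, adjusted p = 0.0677), T98G sgDDA1 3 (1.53, adjusted p = 0.101) or U118-MG sgDDA1 3 (1.00, adjusted p = 0.304), and with the replicate number as a block (1.70, adjusted p = 0.0517).

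Apart from HLA-F and the near-absent HLA-G, class I chains of U118-MG sgDDA1 fell between the other lines. B2M stood at 1417 ± 25 CPM (SD, n = 3), above LN229 sgDDA1 (2.41, SE 0.04, adjusted p = 5.99e-27) and below T98G sgDDA1 (-1.37, SE 0.04, adjusted p = 1.34e-21). HLA-B stood at 83.5 ± 5.9 CPM, close to LN229 sgDDA1 (0.15, SE 0.05, adjusted p = 0.00863, and 0.241 with all 18 libraries) and 8.78-fold below T98G sgDDA1 (-3.13, SE 0.05, adjusted p = 2.48e-26). HLA-F was not called against LN229 sgDDA1 (-0.26, SE 0.16, adjusted p = 0.148). CIITA and NLRC5, at 25.4 ± 1.0 and 42.2 ± 5.1 CPM, were above LN229 sgDDA1 by 3.18 (SE 0.10, adjusted p = 4.32e-21) and 3.53 (SE 0.10, adjusted p = 5.09e-22) on the log2 scale.

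Per transcript length, B2M led the members in LN229 sgCon (66.9 FPKM), in both T98G groups (667 and 634 FPKM) and in U118-MG sgDDA1 (214 FPKM), and HLA-C led in LN229 sgDDA1 (76.8 FPKM, with B2M at 55.0 FPKM) and in the group labelled U118-MG sgCon (105 FPKM, with B2M at 55.9 FPKM). In LN229 sgCon B2M and HLA-C stood side by side, at 66.9 ± 0.5 and 64.2 ± 1.6 FPKM (SD, n = 3). CTSS and CD74 stood at 43.1 ± 1.0 and 18.9 ± 0.7 FPKM in T98G sgCon, and at 0.110 ± 0.012 and 0.223 ± 0.040 FPKM in LN229 sgCon. Among the class II chains the highest per length was HLA-DQB1 in LN229 sgDDA1 (4.31 FPKM), HLA-DRA in T98G sgCon (11.1 FPKM) and in U118-MG sgDDA1 (4.58 FPKM), and HLA-DRB1 in the group labelled U118-MG sgCon (9.82 FPKM).

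In the libraries labelled U118-MG sgCon some members stood near their LN229 level and others did not. HLA-DQB1 measured 27.7, 17.7 and 20.6 CPM there, beside 16.6 to 19.6 CPM in LN229 sgDDA1 and at most 0.0539 CPM in U118-MG sgDDA1. CTSS measured 0.957, 1.32 and 0.816 CPM, beside 0.773 to 1.10 CPM in LN229 sgDDA1 and 16.1 to 19.5 CPM in U118-MG sgDDA1. HLA-DRB1 at 15.0, 9.09 and 9.77 CPM and HLA-DOA at 3.12, 1.76 and 1.75 CPM were higher than in any library of LN229. HLA-C averaged 246.7 CPM, nearer to U118-MG sgDDA1 (257.6 CPM) than to LN229 sgDDA1 (168.3 CPM), and on the scale of log2(mean CPM + 0.0809) HLA-B, RFXANK, HLA-DPB1, IFI30 and MICB were also nearer to U118-MG sgDDA1, while the other 26 of 32 members were nearer to LN229 sgDDA1. Library 1 was the highest of the 3 for HLA-B, HLA-C, HLA-E, TAP1 and most class II chains, and the lowest for ERAP2, at 3.34 CPM beside 7.06 and 6.11 CPM.

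As labelled, the DDA1 guide against the control guide in U118-MG gave 24 called members, 17 higher and 7 lower, where 72.2% of all genes were called, 35.3% higher and 36.9% lower, with a median of 0.77 beside -0.05. ERAP2 (4.35, SE 0.17, adjusted p = 2.76e-15), CTSS (4.09, SE 0.14, adjusted p = 7.39e-16) and HLA-DRA (4.03, SE 0.36, adjusted p = 3.25e-09) were higher, and HLA-DRB1 (-4.44, SE 0.24, adjusted p = 8.49e-13) and HLA-DOA (-3.29, SE 0.45, adjusted p = 1.27e-06) were lower. The HLA-DOA difference was -4.06 without U118-MG sgDDA1 3. For ERAP2, CTSS and HLA-DRA the difference of U118-MG sgDDA1 from LN229 sgDDA1 was 3.53, 4.27 and 6.58, which shares the U118-MG sgDDA1 libraries with the comparison as labelled. Without U118-MG sgCon 1, HLA-C (0.30, adjusted p = 1.41e-06) and HLA-DPB1 (0.66, adjusted p = 0.0371) were called as well. HLA-F passed without U118-MG sgCon 2 (-0.50, adjusted p = 0.0363) and HLA-DPB1 without U118-MG sgDDA1 2 (0.70, adjusted p = 0.0453). A response to the guide and a difference between lines cannot be told apart in this comparison.

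Other genes of the pathway, on lists chosen alongside the members, were counted in the guide comparisons, to be read beside the 45.6% of all genes called in LN229 and the 39.0% called in T98G. Shares of the shorter lists near these values are no result about a list. Of 5 immunoproteasome and activator genes, 2 rose in LN229, among them PSMB9, a catalytic subunit (1.08, SE 0.18, adjusted p = 1.7e-05), and in T98G 2 rose and 1 fell, PSMB10 (-0.58, SE 0.09, adjusted p = 7.48e-06). Of 8 genes of folding and translocation in the endoplasmic reticulum, 7 fell in LN229 and 7 fell and 1 rose in T98G. The lectin chaperone CALR fell by 0.56 (SE 0.04, adjusted p = 2.43e-12) in LN229, and CANX, its membrane relative, fell by 0.55 (SE 0.03, adjusted p = 9.45e-13) in T98G. Of 10 interferon gamma signalling genes, 1 rose and 1 fell in LN229, and 3 rose and 4 fell in T98G.

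In T98G STAT2, a transcription factor of interferon signalling, rose by 0.77 (SE 0.05, adjusted p = 6.2e-12), while IRF1 fell by 0.74 (SE 0.05, adjusted p = 7.49e-13) and the kinase gene JAK2 by 0.75 (SE 0.06, adjusted p = 3.7e-10). The list therefore moved in both directions. Of 9 endolysosomal genes, 3 rose and 2 fell in LN229, with CTSH of the cathepsins at 0.82 (SE 0.07, adjusted p = 4.51e-10), and 5 rose and 1 fell in T98G, with CTSB at 0.73 (SE 0.05, adjusted p = 4.01e-12). CTSL, another cathepsin gene, fell there (-0.34).

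Of 10 further ligands of natural killer and T cells, 9 were tested, and 4 rose in LN229 while 2 rose and 4 fell in T98G. PDCD1LG2, the other PD-1 ligand, fell in T98G by 1.73 (SE 0.15, adjusted p = 7.1e-10). Of 4 class I-like genes, 3 rose in LN229, and 2 rose and 1 fell in T98G. CD1D, which presents lipids, went from 0.773, 0.508 and 0.683 CPM to 2.48, 3.22 and 3.05 CPM in LN229 (2.12, SE 0.18, adjusted p = 2.01e-10) and rose in T98G by 0.65 (SE 0.13, adjusted p = 0.000181). Between control libraries the immunoproteasome subunits PSMB8 (8.83, SE 0.12, adjusted p = 6.39e-29) and PSMB9 (7.28, SE 0.11, adjusted p = 6.78e-28) were higher in T98G than in LN229, as were all 10 interferon gamma signalling genes. In that comparison 74.8% of all genes were called, 35.9% higher and 38.9% lower.

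Reads of these genes can be shared between genes with like or overlapping sequence, which limits levels of single genes. In GENCODE 29 transcripts, 23 of the 32 members had no word of 100 bases in common with another gene, and 4 had over 5% of such words in common. These were IFI30 (36.3%), TAP2 (30.3%), CIITA (10.6%) and HLA-DMB (6.63%). None of these shared words was with another member, and the count takes in overlapping annotated genes as well as copies. At 50 bases HLA-DRB1 shared 9.92% of its words, HLA-C 5.38% and HLA-B 2.72%. The annotated HLA-B and HLA-C genes overlap by 2640 bases on the same strand, and HLA-DPA1 and HLA-DPB1 by 4850 bases on opposite strands. Without knowing whether counting used the strand, reads in the DP overlap cannot be assigned to one gene. The words come from the reference haplotype, and the alleles of the lines were not analysed here, so levels of the variable genes HLA-B, HLA-C, HLA-DRB1, HLA-DQA1 and HLA-DQB1 compared between lines also depend on how well each allele aligns, which was not tested.

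**Figure D5:**
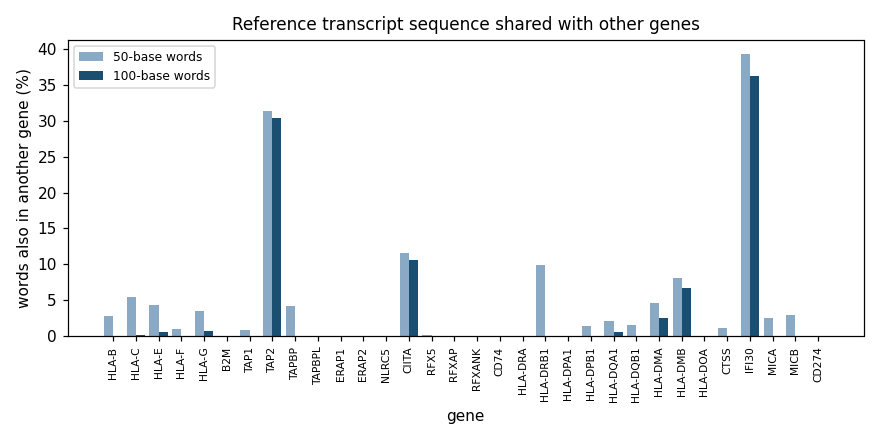
Percent of the words of 50 bases (light) and 100 bases (dark) in a member's GENCODE 29 transcripts that also occur in a transcript of another gene. IFI30 and TAP2 stand out at 36.3% and 30.3% for 100 bases, and most HLA genes share few words.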

How the data were processed

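RNA was measured in 18 libraries, 3 for each of 6 groups, grouped by the line and guide in the labels. The authors deposited raw counts per gene and FPKM, and per the submitters' processing notes fastp 0.19.6, STAR 2.4.0, HTSeq 0.12.4, the build GRCh38 and DESeq2 were named. The annotation, the read length and the strand setting are not given in the sources used here. The FPKM values in the authors' deposited tables were used only for levels between genes. Of the 46218 gene IDs, 14105 had no symbol.

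From the counts, edgeR 4.0.16 in R 4.3.3 (with limma 3.58.1) filtered low genes with filterByExpr, scaled by TMM and ran the quasi-likelihood F-test with Benjamini-Hochberg adjustment over all genes tested, 24020 in the model of 15 libraries without the group labelled U118-MG sgCon and 24418 in the model of 18, which gave the U118-MG comparison as labelled. A gene is called when its adjusted p is under 0.05. Each standard error belongs to a log2 fold change. CPM are scaled by TMM, and 3 counts per library, the floor, equal 0.0294 to 0.0809 CPM. Alternatives were DESeq2 1.42.0, another scaling (RLE), no filter, all 18 libraries, the compared groups alone, the replicate number as a block and each library left out. The procedure was checked on simulated data.

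All 32 members are accounted for, other pathway genes are given as counts by list with a few named by the size of their change among called genes, and the members and lists were chosen with earlier results of these data known. Single values of some listed genes are not reported here.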

Additional observations from a re-analysis of the deposited data

Results flagged for a closer look

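The response to the DDA1 guide differed between T98G and LN229, by the interaction term of edgeR's quasi-likelihood test with Benjamini-Hochberg adjustment over all 24020 genes, for the 24 members given here as the T98G log2 fold change minus that of LN229. Among class II and endosomal genes the differences were -2.13 for CD74 (adjusted p = 1.09e-09), -3.08 for HLA-DRB1 (adjusted p = 2.12e-08), -2.63 for HLA-DPA1 (adjusted p = 7.86e-13), -1.65 for HLA-DMB (adjusted p = 4.9e-08) and -3.06 for CTSS (adjusted p = 2.79e-12). HLA-DPB1 differed by -1.82 (adjusted p = 0.00806), which was lost without LN229 sgCon 1 (-1.41, adjusted p = 0.0801) and was -3.03 without LN229 sgCon 3. HLA-DQA1 differed by -4.48 (adjusted p = 0.008), a fitted value that rests on T98G libraries of 0 to 4 counts, is no measure of size, was -6.50 without T98G sgDDA1 1 and was lost without T98G sgCon 2 (-3.57, adjusted p = 0.128). IFI30 differed by -2.54 (adjusted p = 0.0308), and its call was lost without LN229 sgCon 1 or 2, LN229 sgDDA1 2, T98G sgCon 1 or 2, or T98G sgDDA1 2 or 3 (adjusted p from 0.0545 to 0.128), and the difference was -3.62 without T98G sgDDA1 1.

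Among class I chains the differences were -0.83 for HLA-B (adjusted p = 5.45e-10), -0.25 for HLA-C (adjusted p = 0.000548), 0.23 for HLA-E (adjusted p = 0.0124), -1.69 for HLA-F (adjusted p = 6.57e-08) and 0.30 for B2M (adjusted p = 6.07e-05). Among loading and trimming genes they were -0.48 for TAP2 (adjusted p = 3.47e-06), 0.34 for TAPBP (adjusted p = 0.00193), -0.89 for TAPBPL (adjusted p = 5.63e-05), -0.76 for ERAP1 (adjusted p = 1.83e-08) and -1.25 for ERAP2 (adjusted p = 1.64e-13). Among regulators NLRC5 differed by -0.88 (adjusted p = 5.47e-05), RFX5 by -0.32 (adjusted p = 0.000321) and RFXAP by 0.28 (adjusted p = 0.0341). The RFXAP call was lost without LN229 sgCon 2, LN229 sgDDA1 1 or 2, T98G sgCon 1 or 2, or T98G sgDDA1 2 or 3 (adjusted p from 0.0709 to 0.0863). Among ligands MICA differed by -0.40 (adjusted p = 0.00333), MICB by -0.91 (adjusted p = 5.63e-09) and CD274 by -2.33 (adjusted p = 2.56e-07). With all 18 libraries in the model the calls of HLA-C, HLA-E, B2M, TAPBP, RFXAP, IFI30 and MICA were lost (adjusted p = 0.331, 0.385, 0.0568, 0.112, 0.159, 0.0542 and 0.0812).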

How the results depend on the processing

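With all 18 libraries in one model, 7185 genes were called in LN229, 5402 in T98G and 4227 for the difference of responses, against 10949, 9363 and 8257 without the group labelled U118-MG sgCon. Over these comparisons and those between lines, 20 member calls were lost and 1 gained. The gain was HLA-DOA in U118-MG sgDDA1 against LN229 sgDDA1, and the losses between lines were RFX5 in T98G against LN229 controls and HLA-B in U118-MG sgDDA1 against LN229 sgDDA1. Leaving out 1 library gave 21 to 22 called members in LN229, 16 to 19 in T98G, 24 to 28 in U118-MG as labelled, 22 to 25 for the difference of responses, 28 to 29 for T98G against LN229 controls, and 27 to 28 and 23 to 25 for U118-MG against LN229 and T98G. All genes called ranged from 9506 to 10072 in LN229 and from 8308 to 8390 in T98G. No value that changed sign was called, and the cause was not tested.

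The signs that changed in the difference of responses were TAP1 (-0.0013) and CIITA (0.005) with all 18 libraries, TAP1 (-0.0247) and RFXANK (-0.0258) under RLE, and the same genes under DESeq2 (-0.0215 and -0.0257). TAPBP in T98G turned to -0.0205 under RLE, -0.0205 under DESeq2 and -0.0169 with no filter. ERAP1 in LN229 turned to -0.0281 with the compared groups alone and -0.0168 with no filter. In U118-MG as labelled, HLA-C (-0.0738) and TAP2 (-0.089) turned with the compared groups alone, and HLA-B (0.0554) and RFXANK (0.0504) with no filter.

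Leaving out 1 library moved these across 0. In LN229 CD74 ranged from -0.2702 to 0.0943, ERAP1 from -0.0715 to 0.0495 and HLA-DRA from -1.0406 to 2.2324. In T98G HLA-DOA ranged from -0.4698 to 0.6986 and TAPBP from -0.0188 to 0.0354. For the difference of responses CIITA ranged from -0.1358 to 0.0886, HLA-DMA from -0.1469 to 0.2585, RFXANK from -0.0297 to 0.0762 and TAP1 from -0.0616 to 0.045. In U118-MG as labelled HLA-B ranged from -0.1646 to 0.2251, HLA-C from -0.054 to 0.3004, IFI30 from -0.4045 to 0.037, RFXANK from -0.189 to 0.1853 and TAP2 from -0.0125 to 0.0929. For U118-MG against T98G, HLA-DQA1 ranged from -2.4805 to 0, HLA-DQB1 from -1.0386 to 0.4333 and HLA-DRB1 from -0.2748 to 0.0027. Fitted values of HLA-DOA, HLA-DQA1 and HLA-DQB1 in T98G rest on counts near the floor and are no measure of size.

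Replicate numbers showed no clear pairing of the libraries in expression. Correlations of same-numbered deviations were 0.172, 0.030 and 0.062 in LN229, -0.043, -0.094 and -0.075 in T98G and -0.010, 0.146 and -0.119 in U118-MG. Not every library correlated best with its own number. Whether libraries were prepared in pairs is not stated, and so few libraries cannot exclude it. With the replicate block 10461 genes and 23 members were called in LN229, 8893 and 18 in T98G, 17241 and 24 in U118-MG as labelled, and 7697 and 24 for the difference of responses. Between lines the block gave 17769 and 28 for T98G against LN229, 18599 and 27 for U118-MG against LN229 and 15930 and 23 for U118-MG against T98G. Under the block TAPBPL in LN229 was called (0.34, adjusted p = 0.03) and HLA-DOA in U118-MG against T98G was not (1.70, adjusted p = 0.0517). The block turned TAP1 (-0.0025) and CIITA (0.0135) in the difference of responses.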
